A study of Mus musculus with 6 samples.

Results

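The SPARC family of matricellular genes was described in lung buds taken from mouse embryos at E12.5, a stage of airway branching. The family was taken as 8 genes listed by symbol, Smoc1, Smoc2, Sparc, Sparcl1, Spock1, Spock2, Spock3 and Fstl1. The family was chosen by the mutant minus control difference of 1 gene, Smoc2, which was lower in mutant lungs, so the difference in Smoc2 between mutant and control is a description here and no test of it is given. The other 7 genes entered as relatives of Smoc2 and not by their own values. All 8 were found among 22180 measured genes, each with a single probe set, a set of array probes that together report 1 gene.

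The mutant group held 3 lungs of genotype Fzd2Flox/Flox; Shh cre/+ and the control group 3 lungs of genotype Shh cre/+. The labels call the arrays of a group biological replicates without saying how many embryos went into each. Both groups carry 1 copy of a Cre recombinase allele at Shh, a gene expressed by lung epithelium, and no lung without that allele is among the 6 arrays. The stated aim was to find genes that depend on the Wnt receptor Fzd2 in the epithelium, but whole lung buds were measured, so fewer cells of a type and less RNA per cell cannot be told apart.

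Matricellular proteins are secreted into the extracellular matrix, where they change how cells meet matrix and growth factors and add little to its structure. SPARC family proteins share a follistatin-like domain and, in most members, a calcium-binding domain named after SPARC. Smoc1 and Smoc2 are secreted calcium-binding proteins of basement membranes. Sparc, also called osteonectin, binds collagens and calcium, and Sparcl1, also called hevin, is its nearest relative. Spock1, Spock2 and Spock3 encode testicans, proteoglycans that in human cells act on membrane-type matrix metalloproteinases. Fstl1 encodes a follistatin-like glycoprotein that in mouse binds Bmp4 and is needed for normal lung and trachea.

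All values are log2 expression, on which a difference of 1 is a doubling, and differences are mutant minus control. The arrays had medians of 7.29 to 7.32, and their small number limits how precise any value is. Lung identity was checked on its markers: the lung epithelial factor gene Nkx2-1 averaged 10.08 in mutants and 10.49 in controls, and the lung mesenchyme gene Tbx4 averaged 10.98 in mutants and 11.03 in controls, all above the 30th percentile of gene means (6.62). Fzd2 lay between 9.07 and 9.67 in mutants and between 9.57 and 9.82 in controls. Its difference of -0.29 (SE 0.15) did not pass limma's threshold (adjusted p = 0.475), and mutant replicate 1 lay inside the range of the controls, so Fzd2 is a weak check of the labels. Control replicate 1 stood apart in the mean of 15 genes of adult small intestine, which was 8.88 there and at most 6.55 on each other array. Not all 15 stood apart. Cdx1 was at 6.74 there and 6.81 on mutant replicate 2, and Cdx2 at 6.96 there and 6.97 on control replicate 3. Mutant replicate 2 stood apart in the mean of 10 adipose tissue genes, which was 9.03 there and at most 7.23 on each other array. Lep did not stand apart, at 6.44 there and 6.42 on mutant replicate 1. Fabp4 was at 12.92 on mutant replicate 2 and also raised on control replicate 3, at 8.52. Results are given without control replicate 1 and mutant replicate 2 where these bear on a statement.

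Smoc2, chosen for this, had a lower mean in mutant lungs, at 65.0% of the control level, and the other 7 members had means 1.00- to 1.12-fold those of controls. Limma, with p-values adjusted over all 22180 genes and a threshold of 0.05, called none of the 7 relatives (0 of 7), where 0.0631% of all genes were called, 0.0451% lower and 0.018% higher. No relative was called in any of the 14 other settings tried. With a replicate block or with arrays left out no gene at all was called, so those settings say nothing about the relatives. Among the 7 relatives, 2 had an unadjusted p under 0.05, Spock2 and Spock3, as did 2770 of the 22180 genes measured. The median difference was 0.08 over the 8 members and 0.11 over the 7 without Smoc2, beside 0.01 over all genes. Of all genes, 54.8% had higher and 45.2% lower means in mutants.

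Smoc2 had log2 values of 8.75, 8.81 and 9.03 in mutant replicates 1 to 3, against 9.44, 9.49 and 9.52 in control replicates 1 to 3. Every mutant array lay below every control array, and a gap of 0.41 separated the highest mutant from the lowest control. The groups did not overlap in 19.4% of all genes, with the mutants lower in 8.83%, and since this contrast chose Smoc2 nothing is read from that. The mean was 8.86 ± 0.15 in mutants and 9.48 ± 0.04 in controls (SD, n = 3 each), a difference of -0.62 (SE 0.08), or 1.54-fold. The control lungs were tight, with a range of 0.08, and the mutant lungs ranged over 0.28, with mutant replicate 3 nearest to the controls. Measured from the control mean, mutant replicates 1, 2 and 3 were at -0.73, -0.68 and -0.46. In all, 55 genes, or 0.248% of those measured, had a difference as low as that of Smoc2 or lower, and 21 of the 55 had groups that did not overlap.

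Smoc1, the closest relative of Smoc2, is needed for eye and limb development in mouse and inhibits BMP signalling in frog embryos. It had 7.514, 7.984 and 7.601 in mutant replicates 1 to 3, against 7.756, 7.319 and 7.619 in the controls. The groups overlapped and the spread within them was wide. The mean was 7.70 ± 0.25 in mutants and 7.57 ± 0.22 in controls (SD, n = 3 each), and the difference of 0.14 (SE 0.15, limma adjusted p = 0.724) was smaller than either SD. Its highest value came from mutant replicate 2, the array with the adipose tissue genes. Without that array the difference was -0.00695. Its 95% interval over all arrays ran from -0.21 to 0.48.

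**Figure D1:**
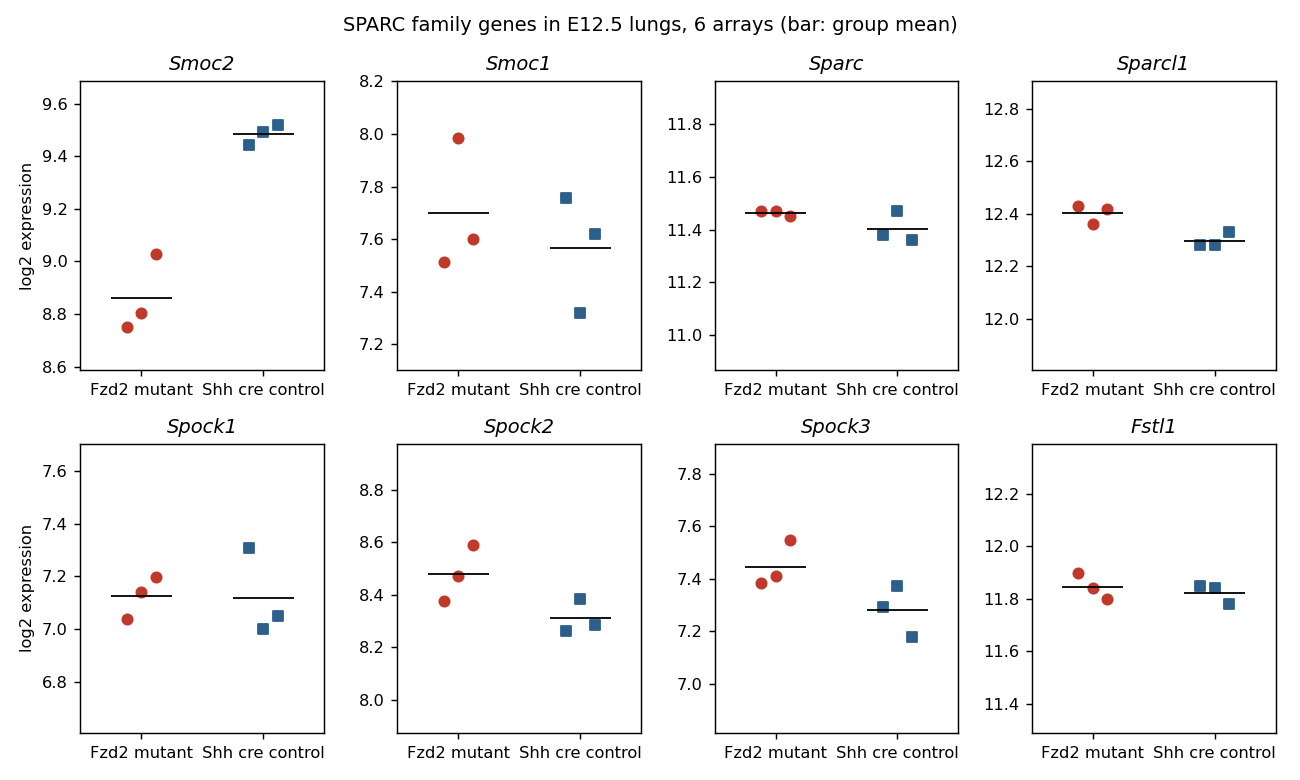
Log2 expression of the 8 SPARC family genes on each array, with Fzd2 mutant lungs as circles at the left of each panel, Shh cre control lungs as squares at the right, and bars for group means. Every panel spans 1.1 log2 units. Smoc2 shows a gap of 0.41 between the groups, and 5 of the other 7 panels show overlapping groups.

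Sparc and Sparcl1 were among the least variable members. Sparc had 11.47, 11.47 and 11.45 in mutant replicates 1 to 3, against 11.38, 11.47 and 11.36 in the controls. The mutants lay close together, and control replicate 2 overlapped them while the other controls lay below. The difference was 0.06 (SE 0.05, 95% interval -0.06 to 0.17, limma adjusted p = 0.642).

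Sparcl1, known from blood vessels and from synapse formation in mouse brain, had 12.43, 12.36 and 12.42 in mutant replicates 1 to 3, against 12.28, 12.28 and 12.33 in the controls. Every mutant array lay above every control array, by a gap of 0.03. Across all genes, 10.6% had mutants above controls with no overlap, which also held for 2 of the 7 relatives, Sparcl1 and Spock3. The difference of 0.11 (SE 0.05, 95% interval -0.0014 to 0.22) did not pass limma's threshold (adjusted p = 0.404). The 15 endothelial markers had a median difference of -0.03, with means of 9.55, 9.44 and 9.46 in mutants and 9.46, 9.56 and 9.52 in controls, so the groups overlapped in that list. Limma called none of its genes (0, with Erg at an unadjusted p under 0.05), and the smallest p were those of Erg (-0.18, SE 0.07, adjusted p = 0.391) and Flt1 (0.10, SE 0.06, adjusted p = 0.516).

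The 3 testican genes, whose products carry glycosaminoglycan chains, had 95% intervals that overlapped, and differences among them were not tested. Spock1 had 7.039, 7.140 and 7.198 in mutant replicates 1 to 3, against 7.309, 7.001 and 7.048 in the controls. The mutant values lay inside the control range, which control replicate 1 alone widened. The difference was 0.0065 (SE 0.09, 95% interval -0.20 to 0.21, limma adjusted p = 0.983), and it was 0.10 without control replicate 1.

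Spock2, whose product in human cells blocks the effect of other testicans on membrane-type metalloproteinases, had 8.38, 8.47 and 8.59 in mutant replicates 1 to 3, against 8.26, 8.39 and 8.29 in the controls. Mutant replicate 1 overlapped control replicate 2, and the other mutant arrays lay above all controls. The mean was 8.48 ± 0.11 in mutants and 8.31 ± 0.07 in controls (SD, n = 3 each). The difference of 0.17 (SE 0.07, 95% interval 0.0094 to 0.33) did not pass over all genes (limma adjusted p = 0.382).

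Spock3, best known from the brain, had 7.38, 7.41 and 7.55 in mutant replicates 1 to 3, against 7.29, 7.37 and 7.18 in the controls. The groups were apart by only 0.01. The difference was 0.17 (SE 0.07, 95% interval 0.0037 to 0.33, limma adjusted p = 0.395). The marker list of neural crest and neurons, with 8 measured genes, had means of 7.852, 7.811 and 7.997 in mutants and 7.793, 7.712 and 7.770 in controls. In that list 7 of 8 genes had higher means, where 54.8% of all genes had higher means. Limma called none (0, with 4 at an unadjusted p under 0.05, as had 2770 of all 22180 genes). The smallest p were those of Erbb3 (-0.36, SE 0.07, adjusted p = 0.143) and Stmn2 (0.38, SE 0.09, adjusted p = 0.212). The part of that list in the Spock3 value was not tested.

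Fstl1 had 11.90, 11.84 and 11.80 in mutant replicates 1 to 3, against 11.85, 11.84 and 11.78 in the controls. The groups overlapped almost wholly. The difference of 0.02 (SE 0.05, 95% interval -0.09 to 0.14, limma adjusted p = 0.860) was within the spread between arrays.

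**Figure D2:**
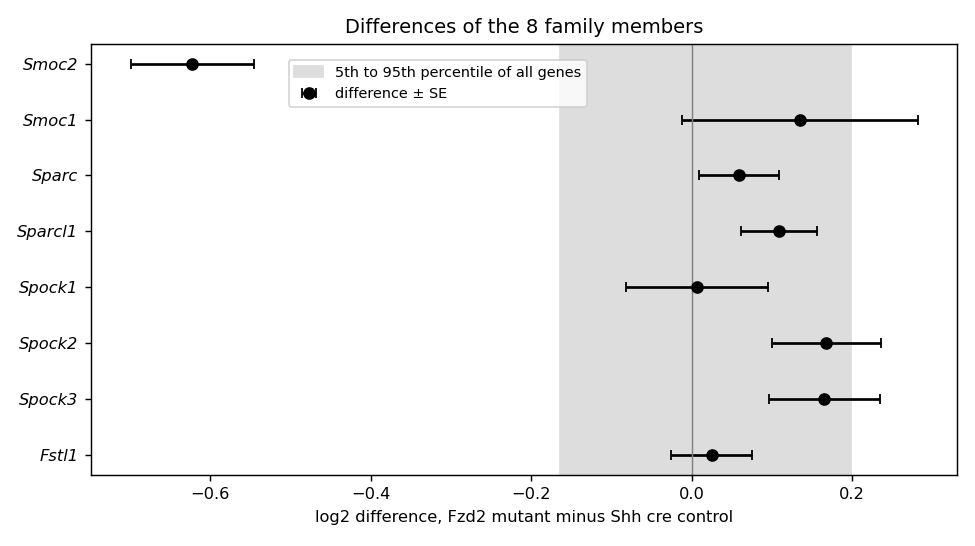
Log2 difference, Fzd2 mutant minus Shh cre control, of each family member with bars of 1 SE over 6 arrays, beside a grey band for the 5th to 95th percentile of all genes (-0.16 to 0.20). Smoc2, at -0.62, lies outside the band and the other 7 lie inside it.

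The 95% intervals of the 7 relatives reached from -0.21 at the lowest bound to 0.48 at the highest, both for Smoc1. Within groups, the pooled SD of the members ran from 0.03 for Sparcl1 to 0.24 for Smoc1, with a median of 0.09 beside 0.08 over all genes. Smoc2 had a pooled SD of 0.11, below those of Smoc1 and Spock1 (0.13) and above those of the other members. Without control replicate 1 and mutant replicate 2 together, Smoc2 had a difference of -0.62, and again 1 of the 8 members had a lower mean. Without mutant replicate 2 alone, 3 of the 8 had lower means, since those of Smoc1 and Spock1 (-0.00055) moved just below 0.

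The pattern of Smoc2 over the arrays was compared with that of other genes after the mean of each gene was subtracted. Likeness was the root mean square difference over the 6 arrays, among 14303 genes above the 30th percentile that are neither members nor predicted transcripts. The median gene differed from Smoc2 by 0.33 log2 units. The 6 nearest were Exph5 (0.09), whose product acts with Rab27 in vesicle transport, Cep112 (0.11), which encodes a centrosomal protein, Cep112it (0.11), Gal (0.11), which encodes the neuropeptide galanin, Sfta3-ps (0.11) and Tmem181c-ps (0.12). Their differences between the groups ran from -0.67 for Exph5 to -0.42 for Gal, and they were picked for that likeness, so no test of them is given. Of the 7 relatives, the one nearest to Smoc2 was Spock1, at 0.34, and the farthest was Smoc1, at 0.44. These distances mostly restate the group difference for which Smoc2 was chosen.

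**Figure D3:**
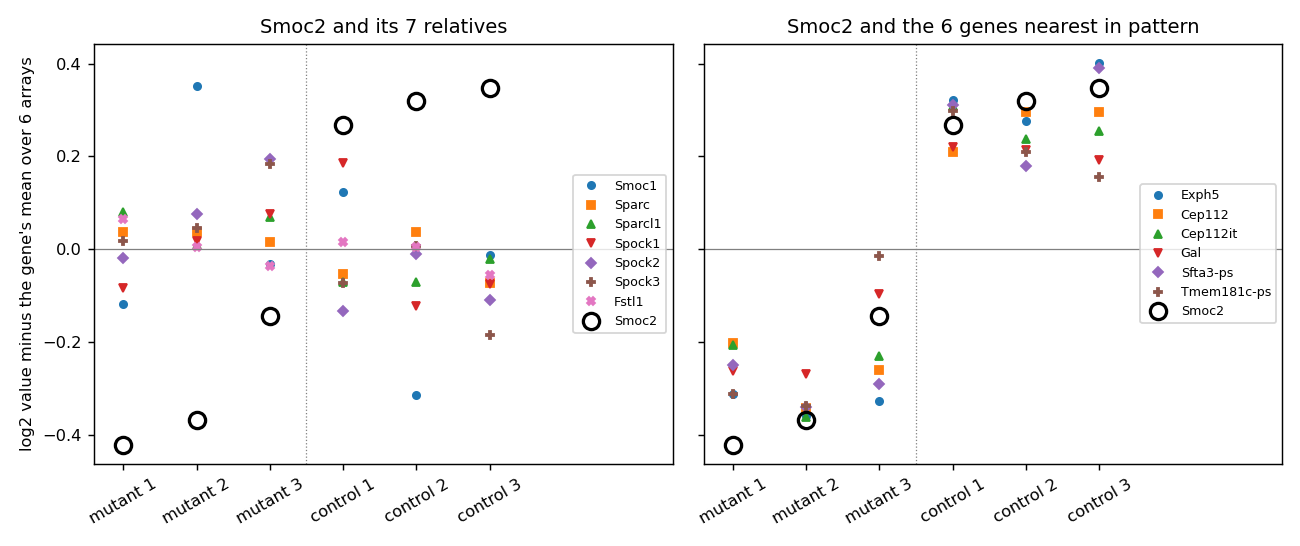
Log2 value minus the mean of the gene over the 6 arrays, by array, for Smoc2 (open circles) with its 7 relatives at the left and with the 6 genes nearest in pattern at the right. The relatives scatter around 0, and the 6 nearest genes sit below 0 in each mutant array and above 0 in each control array, as Smoc2 does.

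Genes next to Smoc2 on its chromosome were looked at after the values of the members had been seen. The adjacent measured protein-coding genes were Dact2 on one side and Thbs2, which encodes the matricellular protein thrombospondin 2, on the other. Dact2 averaged 8.96 in mutants and 9.03 in controls, a difference of -0.07 (SE 0.05, limma adjusted p = 0.553). Thbs2 averaged 10.07 in mutants and 9.76 in controls, a difference of 0.31 (SE 0.10, limma adjusted p = 0.314). The next 2 genes on each side, Gm7168, 4930488N24Rik, Wdr27 and 1600012H06Rik, had differences between -0.12 (Wdr27) and 0.14 (1600012H06Rik). Gm7168, 4930488N24Rik and Wdr27 averaged below the 30th percentile of gene means (6.62) in both groups, so little can be read from them. Mutants lay below controls with no overlap in Dact2, as in 8.83% of all genes. They lay above with no overlap in Thbs2 and 1600012H06Rik, as in 10.6% of all genes. None of these 6 neighbours passed limma's threshold (0 of 6, with Thbs2 and 1600012H06Rik at an unadjusted p under 0.05).

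Epithelial markers were lower in mutants, as Smoc2 was. All 23 measured pan-epithelial genes had lower means in mutants, with a median difference of -0.29. In 18 of the 23 the mutants lay below the controls with no overlap, as in 8.83% of all genes. The list was chosen with earlier results of these data known, so these counts are a description and no independent evidence. Over all genes limma called 1 of them lower, the splicing regulator gene Esrp1 (-0.48, SE 0.05, adjusted p = 0.0334), where 0.0451% of all genes were called lower. The mean of the 23 genes was 8.97, 8.83 and 8.96 in mutant replicates 1 to 3, against 9.24, 9.23 and 9.15 in the controls. Mutant replicate 2, the array with the adipose tissue genes, was lowest in that mean. Smoc2 was at 8.75 in mutant replicate 1 and 8.81 in mutant replicate 2. The differences of the 23 markers ran from -0.48 to -0.09. The part of epithelial content in the Smoc2 value was not tested.

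Mesenchymal markers were mixed. Of 18 lung mesenchyme genes, 11 had higher and 7 lower means, with a median of 0.13, where 54.8% of all genes had higher means. The lower ones were Tbx4, Tbx5, Foxf1, Tcf21, Wnt2, Meox2 and Hoxa5, none below -0.10. The widest higher ones were Lum (0.61), Dcn (0.54) and Prrx1 (0.50). Limma called the matrix proteoglycan gene Dcn higher (0.54, SE 0.05, adjusted p = 0.0238), 1 of the 18, where 0.018% of all genes were called higher. The mean of the 18 genes was 10.78, 10.76 and 10.73 in mutants, against 10.62, 10.63 and 10.59 in controls, with no overlap. The collagen-binding gene Sparc and the secreted factor gene Fstl1, both known from mesenchyme, had the differences of 0.06 and 0.02 given above, below the median of that list. Its part in the values of the relatives was not tested. Smooth muscle markers had a median of -0.12, with 8 of 10 means lower, and mesothelial markers one of 0.14, with 6 of 7 means higher, and limma called none of either (0 of 17, of which 6 had an unadjusted p under 0.05). Among smooth muscle genes the smallest p were those of Actg2 (-0.38, SE 0.08, adjusted p = 0.188) and Myocd (-0.42, SE 0.10, adjusted p = 0.212), and among mesothelial genes those of Gpm6a (0.37, SE 0.06, adjusted p = 0.109) and Upk3b (0.19, SE 0.06, adjusted p = 0.314).

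**Figure D4:**
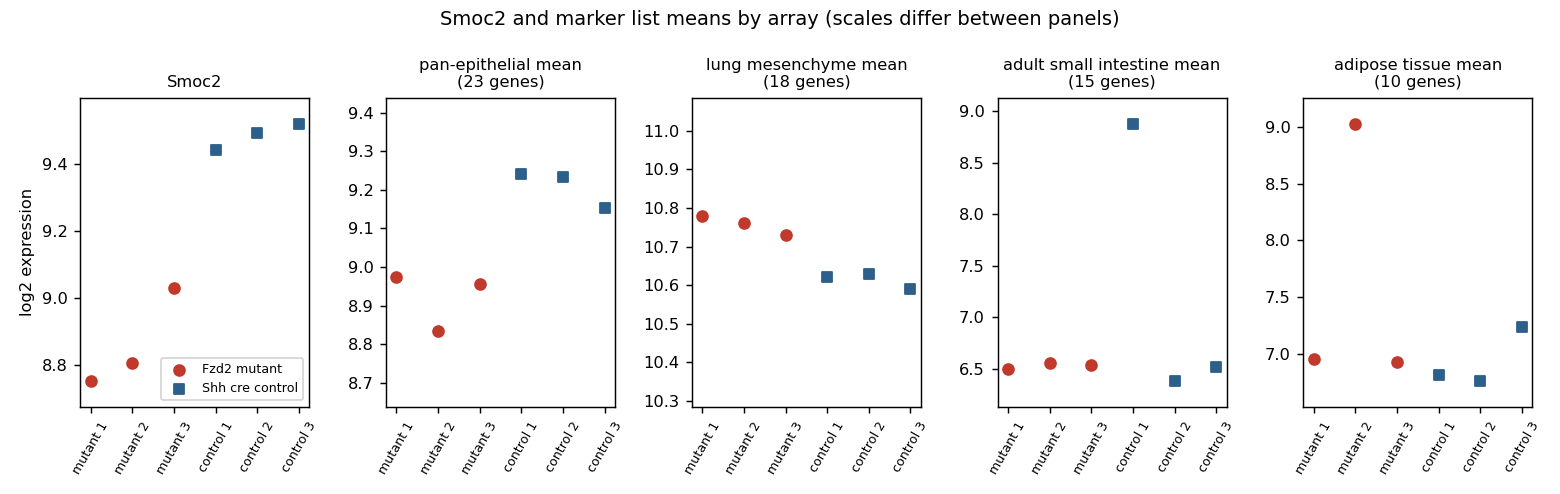
Log2 expression of Smoc2 and mean log2 expression of 4 marker lists on each array, with Fzd2 mutant lungs as circles and Shh cre control lungs as squares, on scales that differ between panels. The pan-epithelial mean is lower and the mesenchyme mean higher in all 3 mutants, and control replicate 1 (8.88) and mutant replicate 2 (9.03) stand apart in the intestine and adipose panels.

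Smoc2 is known as a gene of Lgr5-positive stem cells in the adult mouse intestine, so the level on control replicate 1, with its intestinal genes, was looked at first. At 9.44 it was the lowest of the control arrays, and without it the difference was -0.64. Of 12 other genes known from those stem cells, 10 had lower means in mutants, as did 45.2% of all genes, with a median of -0.13. In 5 the mutants lay below the controls with no overlap, as in 8.83% of all genes. This list too was chosen with earlier results of these data known, so its counts are a description and no independent evidence. Limma called none of the 12 (0, with 5 at an unadjusted p under 0.05). The smallest p were those of the R-spondin receptor gene Lgr5 and of the ubiquitin ligase gene Rnf43, which removes Frizzled receptors from the cell surface. Lgr5 had 7.73, 7.61 and 7.67 in mutant replicates 1 to 3, against 8.06, 8.17 and 8.22 in the controls, a difference of -0.48 (SE 0.06, adjusted p = 0.0556). Rnf43 had a difference of -0.32 (SE 0.05, adjusted p = 0.109). Another member, Olfm4, had 8.54 on control replicate 1 and at most 6.86 elsewhere. Without control replicate 1 and mutant replicate 2 together, 11 of the 12 had lower means and the median was -0.0665. The lower epithelial markers given above go with this list as well, and their part in it was not tested.

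Among 17 other matricellular genes, such as thrombospondins, tenascins and CCN proteins, 12 had higher and 5 lower means, with a median of 0.06. Higher means were found in 54.8% of all genes. Limma called none (0, with 5 at an unadjusted p under 0.05). The widest differences in the list belonged to Postn, which encodes periostin, and Thbs1, which encodes thrombospondin 1. Postn had 10.12, 10.94 and 10.31 in mutant replicates 1 to 3, against 9.62, 9.63 and 9.54 in the controls. The groups did not overlap, and mutant replicate 2, the array with the adipose tissue genes, was highest. The difference over all arrays was 0.86 (SE 0.19, adjusted p = 0.183), which that array raised, and the value without it is not given. Thbs1 had 12.09, 11.99 and 11.70 in mutants, against 12.30, 12.38 and 12.29 in controls, a difference of -0.40 (SE 0.10, adjusted p = 0.219). Leaving out mutant replicate 2 gave a list median of 0.027, and leaving out control replicate 1 gave 0.0841, with 3 lower means.

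**Figure D5:**
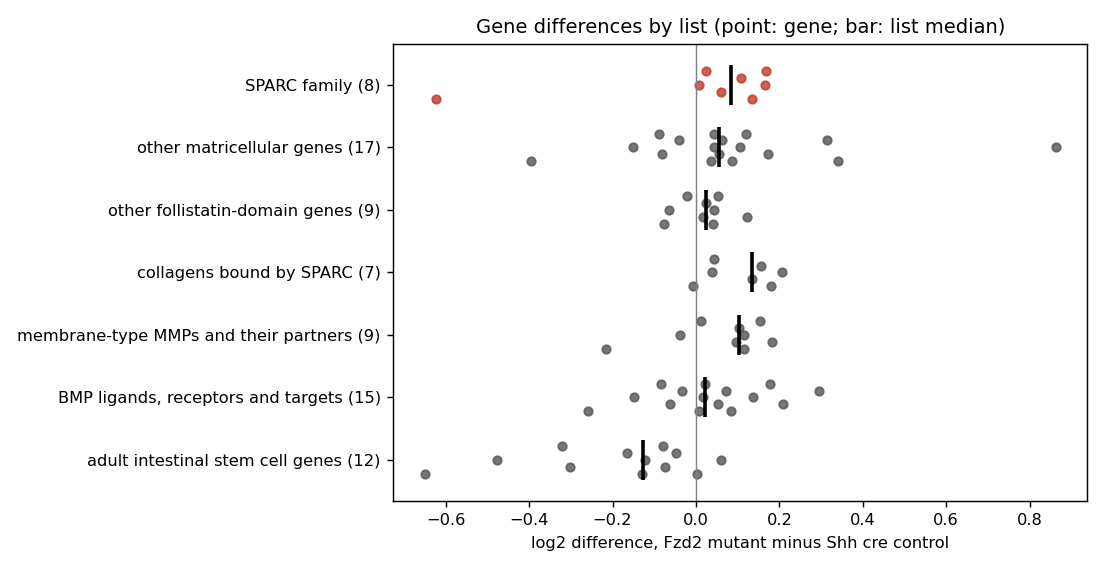
Log2 difference, Fzd2 mutant minus Shh cre control, of each gene (points) in the SPARC family and in 6 related lists, with bars for list medians and the number of measured genes in brackets. Smoc2 is the single family gene left of 0, at -0.62, and the adult intestinal stem cell list has the one median below 0, at -0.13.

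Partners of the family proteins were looked at next. Of 7 collagen genes whose products SPARC binds, 6 had higher means, with a median of 0.13, and the smallest p were those of Col3a1 (0.16, SE 0.05, adjusted p = 0.314) and Col1a1 (0.21, SE 0.08, adjusted p = 0.351). Col1a1, Col1a2 and Col3a1 also stand in the mesenchyme list. A list of membrane-type metalloproteinase genes with Mmp2, Timp2, Timp3 and Ctsl had higher means in 7 of 9 genes and a median of 0.10. Higher means were found in 54.8% of all genes. Which products of that list testicans act on was not looked at. The smallest p in that list were those of the metalloproteinase gene Mmp25 (0.15, SE 0.05, adjusted p = 0.285) and the cathepsin L gene Ctsl (0.18, SE 0.07, adjusted p = 0.360). Limma called none of these collagen and protease genes (0, with 3 of each list at an unadjusted p under 0.05).

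BMP ligands, receptors and targets bear on Smoc1 and Fstl1. Of 15 genes, 10 had higher and 5 lower means, with a median of 0.02, where 54.8% of all genes had higher means. The BMP target Id3 had 9.64, 9.44 and 9.72 in mutant replicates 1 to 3, against 9.26, 9.37 and 9.29 in the controls, a difference of 0.30 (SE 0.08, adjusted p = 0.247). The signal transducer gene Smad5 had a difference of -0.15 (SE 0.05, adjusted p = 0.334). Limma called none (0, with 4 at an unadjusted p under 0.05). Of 9 other genes with follistatin domains, 6 had higher means with a median of 0.03, and 0 were called or had an unadjusted p under 0.05. The smallest p there were those of Wfikkn2 (0.12, SE 0.06, adjusted p = 0.467) and Tmeff1 (-0.07, SE 0.05, adjusted p = 0.595), and without control replicate 1 and mutant replicate 2 the median of that list was -0.0127.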

How the data were processed

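Whole lung buds from 3 mutant and 3 control samples were measured, with 100 ng of total RNA per array labelled from a poly(T) primer, as the labels' protocols say. What the authors deposited is a table of log2 values for 41345 probe sets; the submitters' processing notes name oligo and RMA, with no version. RMA forces arrays to a common distribution, so a change shared by most genes cannot be seen. The log2 scale was inferred from the range, 3.55 to 14.04. Symbols came from the platform annotation, and 23521 probe sets carried 1 symbol. For each of 22180 genes the probe set with the highest mean was used.

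The test was limma 3.58.1 (R 4.3.3), two-sided, with lmFit and eBayes on a model of the 2 groups without other terms, no filter, and Benjamini-Hochberg adjustment over all genes at a threshold of 0.05. Each p-value sets the difference between the groups against the spread of these arrays within groups, which eBayes adjusts with that of all genes. In simulated data over 22180 genes, 74% of genes changed by 0.5 and 96% of those changed by 1 were recovered, among 175 calls. The real data gave 14 calls, so the adjusted threshold was stricter there and these shares do not carry over. Members and lists were chosen with earlier results of these data known. All members were named, and of each list, save the intestine and adipose lists, those that passed over all genes or, where none did, the 2 with the smallest p. Gene neighbours came from the reference table of assembly GRCm38.p6, and no coordinates are printed because no build is named for the arrays. Alternatives were another normalization, filters, averaged probe sets, a variance trend, weighted arrays, a replicate block and each array left out. Figures were drawn with matplotlib 3.10.9.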

Additional observations from a re-analysis of the deposited data

How the results depend on the processing

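Smoc2 had differences from -0.706 to -0.567 in the 14 alternatives. Filters, averaged probe sets, a variance trend and a replicate block left it at -0.622, because they could not change its difference of means. Its groups did not overlap, so leaving arrays out could not change its sign. Nothing is therefore read from the sign being kept. None of the 7 relatives was called in any of the 14 (0 by limma); above the 50th percentile 4 of them were tested. Over all genes, 25 were called among those above the 30th percentile, 50 among those above the 50th, and 46 with a trended and robust variance, in place of 14. The first 2 test fewer genes; the cause in the third was not tested. With the replicate number as a block (replicate block) 0 genes were called, with 2511 at an unadjusted p under 0.05. Same-numbered arrays did not deviate together (correlations across genes of -0.045, -0.061 and 0.074), so the numbers were not taken as pairs. Leaving out any single array gave 0 genes by limma, with 1797 to 3084 at an unadjusted p under 0.05, and 0 without both arrays that stand apart. Sparc, Sparcl1, Spock2 and Spock3 kept positive differences in all alternatives run on them. For Sparcl1 and Spock3, whose groups did not overlap, leaving arrays out could not have changed the sign. Values near 0 changed sign without being called. Spock1 was at -0.048 after a further quantile normalization and ran from -0.0525 to 0.101 with single arrays left out, as Smoc1 did from -0.00695 to 0.231 and Fstl1 from -0.000957 to 0.0477.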
